A study of Mus musculus with 32 samples.

Results

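The 10 genes described here, used as markers of microglia, were followed in whole mouse brain: Csf1r, Cx3cr1, P2ry12, Tmem119, Aif1, C1qa, C1qb, C1qc, Trem2 and Tyrobp. They were taken by symbol, and 10 of 10 were present among the 55291 gene symbols of each of the 4 count tables. The tables hold 32 libraries, with 4 in each of 8 groups. Brains were wild type (WT, Dhcr7+/+) or Dhcr7 knockout (KO, Dhcr7-/-), all of strain C57BL/6J, and came from embryos at E12.5, at E14.5 and at E16.5 or from newborns at PND0, with 1 table per stage. Dhcr7 encodes the enzyme that makes cholesterol from 7-dehydrocholesterol, and the labels name no Cre or cell-type-specific allele. The labels give neither the litter nor the sex of a brain and do not say whether brains were pooled. The p-values below therefore measure only the spread between these samples, which may be technical.

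Microglia are the resident macrophages of the brain. They derive from yolk sac progenitors that enter the neural tube early in gestation, multiply there, and depend on signalling through the receptor Csf1r. They clear dying cells and excess synapses, a task in which the complement protein C1q tags targets and the receptor Trem2, with its adaptor Tyrobp, drives uptake. Border macrophages of the meninges and vessels share most of these transcripts, whereas P2ry12 and Tmem119 are used to set mature microglia apart from them.

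Promoter sequence is shown for C1qb, C1qc and Trem2, which are 3 of the 5 members that rose together in WT from E14.5 to E16.5. Capitals mark the motif GAGGAA, or its reverse complement TTCCTC, which is the core bound by the myeloid transcription factor PU.1. Each run is read 5′ to 3′ on the strand of its gene, from RefSeq promoter windows of build GRCm38.p6.
C1qb: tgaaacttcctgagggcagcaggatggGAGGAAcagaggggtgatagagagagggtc
C1qc: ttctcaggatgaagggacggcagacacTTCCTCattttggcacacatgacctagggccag
Trem2: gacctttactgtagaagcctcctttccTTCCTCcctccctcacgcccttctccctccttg
The C1qb run is chr4:136886201-136886257 (minus strand), and its motif lies 30 to 25 bases upstream of the RefSeq start of the gene. The C1qc run is chr4:136893075-136893134 (minus strand), with the motif 193 to 188 bases upstream. The Trem2 run is chr17:48346334-48346393 (plus strand), with the motif 40 to 35 bases upstream. Of the 10 members, 6 had a window, and 4 of those 6 held the motif on either strand in the 250 bases upstream of the start; the fourth was Aif1, while the P2ry12 and Cx3cr1 windows held none. The same is true of 23.3% of all 32851 windows, so the motif is common, and a match describes the letters only.

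Depth ran from 13.87 M to 28.32 M counts per library, M being the prefix mega, and levels are given as counts-per-million (CPM). A count of 3, the least taken as detected, was worth 0.106 to 0.216 CPM. Dhcr7 was lower in every KO library than in any WT library of its stage, at 11.7 to 26.6 CPM against 58.8 to 104 CPM. Counts of a ribosomal RNA gene, CT010467.1, made up at most 5.64% of a library, in replicate 1 of the E12.5 KO group. Markers of monocytes and neutrophils were low: the 12 genes of that list summed to 0.625 to 12.6 CPM in the KO libraries and to 1.3 CPM or more in WT, with PND0 WT replicate 3 highest, and at most 4 of the 12 could be tested at any stage. Border macrophage markers were present at 99.4 to 243 CPM summed over 10 genes, with Mrc1, the mannose receptor, at 18.8 ± 2.7 CPM (SD, n = 4) in WT at E12.5 and 26.3 ± 6.19 CPM at E16.5. The members are therefore read in a mixture in which microglia and border macrophages both occur, and in whole tissue fewer cells of a type cannot be told apart from less RNA per cell.

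All members were detected in all 32 libraries, at low to moderate levels. Summed over the 10 genes, the E12.5 WT libraries held 73 to 106 CPM and the E14.5 WT libraries 66 to 67.5 CPM. The sum was 76.6 to 105 CPM in WT at E16.5, and 76.8 to 100 CPM in WT at PND0. Levels of different genes were compared per kilobase of the longest basic transcript in GENCODE M21 (CPM per kb). In WT at E16.5 the order by mean was C1qc (14 CPM per kb), C1qb (13), C1qa (11.2), Tyrobp (8.37), Csf1r (4.9), Trem2 (2.84), Cx3cr1 (2.23), Aif1 (1.86), Tmem119 (1.65) and P2ry12 (1.52). Neighbouring genes in that order overlapped in range, except Tyrobp with Csf1r, Csf1r with Trem2, and Cx3cr1 with Aif1. At E14.5 the top 5 places, C1qb (6.88 CPM per kb), C1qc (5.54), Csf1r (5.22), C1qa (5.03) and Tyrobp (4.91), each overlapped the next. At PND0 the 3 C1q genes again led, C1qb at 11, C1qc at 8.86 and C1qa at 8.82 CPM per kb, followed by Csf1r at 7.01, and every neighbouring pair overlapped. At E12.5 Tmem119 had the top WT mean, 9.11 CPM per kb, but its libraries spread from 2.83 to 18.2 and overlapped C1qb.

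**Figure D1:**
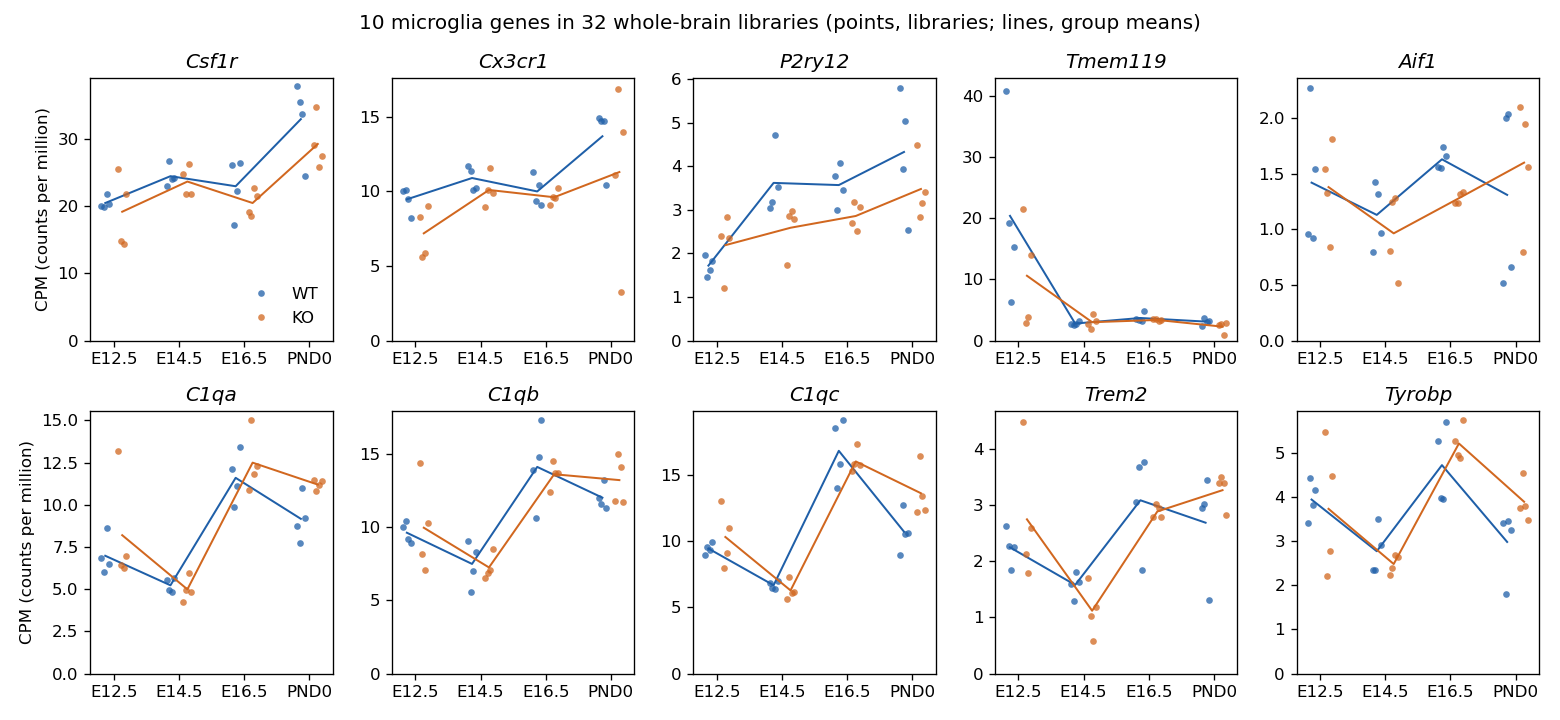
Level of each of the 10 genes in CPM (linear axis from 0) by stage, with 1 point per library and lines through the means of 4 libraries for WT (blue) and KO (orange). The 3 C1q genes, Trem2 and Tyrobp were lowest at E14.5 in WT, and their highest WT mean fell at E16.5, while Csf1r, Cx3cr1 and P2ry12 had their highest mean at PND0 in both genotypes.

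The receptors Csf1r, Cx3cr1 and P2ry12 were lowest in WT at E12.5 and highest at PND0. Csf1r (chr18:61100598-61132149, plus strand), the receptor for the growth factors Csf1 and Il34, stood at 20, 19.9, 21.9 and 20.3 CPM in the 4 WT libraries at E12.5. At E14.5 it was at 23, 26.8, 24.1 and 24.2 CPM, at E16.5 at 26.1, 17.2, 22.3 and 26.5 CPM, and at PND0 at 37.9, 35.6, 33.8 and 24.5 CPM. All 4 libraries at E14.5 and at PND0 were above all 4 at E12.5, whereas E16.5 overlapped both of its neighbours. From E12.5 to PND0 Csf1r rose 1.6-fold (log2 change 0.68, SE 0.129, adjusted p = 0.000728). The adjusted p here and below comes from edgeR and is corrected over all genes tested, a change is called where it is under 0.05, and a log2 change of 1 is a doubling. Of the exonic bases of Csf1r, 15.12% are shared with Hmgxb3 on the opposite strand, and the strand setting of the counting is not given in the sources used here, so reads in that stretch cannot be assigned to one gene.

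Cx3cr1 (chr9:119901616-120069879, minus strand), the receptor for the neuronal chemokine Cx3cl1, moved less. Its WT libraries held 10, 10.1, 9.52 and 8.22 CPM at E12.5 and 14.9, 14.7, 14.7 and 10.4 CPM at PND0, with PND0 replicate 4 nearest to the E12.5 range and above it. The rise was 1.44-fold (log2 change 0.52, SE 0.151, adjusted p = 0.00921), and it no longer passed the threshold with offsets for transcript length (0.27, adjusted p = 0.119). P2ry12 (chr3:59216272-59262871, minus strand), a purine receptor that steers microglial processes, was at 1.97, 1.47, 1.62 and 1.82 CPM in WT at E12.5 and at 3.05, 3.18, 4.72 and 3.52 CPM at E14.5. Its E14.5 libraries lay above all E12.5 libraries, and the rise of 2.07-fold (log2 change 1.05, SE 0.197, adjusted p = 0.00125) was its only called step between neighbouring stages. At E16.5 it was at 3.57 ± 0.46 CPM and at PND0 at 4.33 ± 1.42 CPM (SD, n = 4 each), overlapping the E14.5 range. The ligand of Cx3cr1 also rose over the series: WT Cx3cl1 went from 13.2 ± 1.67 CPM at E12.5 to 98.3 ± 6.7 CPM at PND0 (log2 change 2.89, SE 0.101, adjusted p = 1.56e-08). Il34, a neuronal ligand of Csf1r, went from 0.593 ± 0.209 to 5.51 ± 0.593 CPM (log2 change 3.23, SE 0.277, adjusted p = 1.94e-06).

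Tmem119 (chr5:113793729-113800516, minus strand), a membrane protein used as a mark of mature microglia, had the opposite course. In WT it was at 40.9, 19.3, 6.35 and 15.3 CPM at E12.5 and at 2.65, 2.55, 2.77 and 3.15 CPM at E14.5. The 2 stages did not overlap, and the fall was 7.45-fold (log2 change -2.90, SE 0.522, adjusted p = 0.00169; -2.30 without E12.5 WT replicate 1, adjusted p = 0.000449). It then stayed between 2.43 and 4.86 CPM in WT at E16.5 and PND0, and no later step passed the threshold. At E12.5 the highest of the 8 libraries, WT replicate 1, was 14.2 times the lowest, KO replicate 2, while the same ratio was 1.78 for Csf1r, 1.81 for Cx3cr1 and 2.04 for C1qb.

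Other genes varied over the same E12.5 libraries, from connective tissue (Col1a1) and from the lists of early phagocytic microglia (Igf1) and pan-myeloid genes (Runx1). Col1a1, a collagen of meninges and other connective tissue, was at 847, 625, 432 and 623 CPM in WT and at 708, 182, 192 and 1008 CPM in KO, and its 2 lowest libraries, KO replicates 2 and 3, were also the 2 lowest for Tmem119. Igf1, a growth factor, was at 70.4, 24.5, 12.2 and 14.7 CPM in WT and at 18.1, 7.34, 5.17 and 18 CPM in KO, with the same library highest and the same 2 libraries lowest. The blood and myeloid transcription factor Runx1 was at 11.5 CPM in WT replicate 1 and at 0.722 to 5.4 CPM in the other 7. The pericyte and meninges list as a whole, 10 genes, summed to 565 to 2415 CPM at E12.5 and to 519 to 882 CPM at the later stages. Csf1r, Cx3cr1 and C1qb were lowest of the 8 in the same 2 KO libraries, at 14.4 and 14.9, 5.61 and 5.89, and 7.04 and 8.14 CPM. In WT from E12.5 to E14.5, the step at which Tmem119 fell, Col1a1 and Igf1 fell too (log2 change -2.03 and -2.39, adjusted p = 6.29e-05 and 0.00822). Of the 10 pericyte and meninges genes, 4 fell and 3 rose at that step. The part of the connective tissue genes in the results at E12.5, the fall of Tmem119 included, was not tested.

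**Figure D2:**
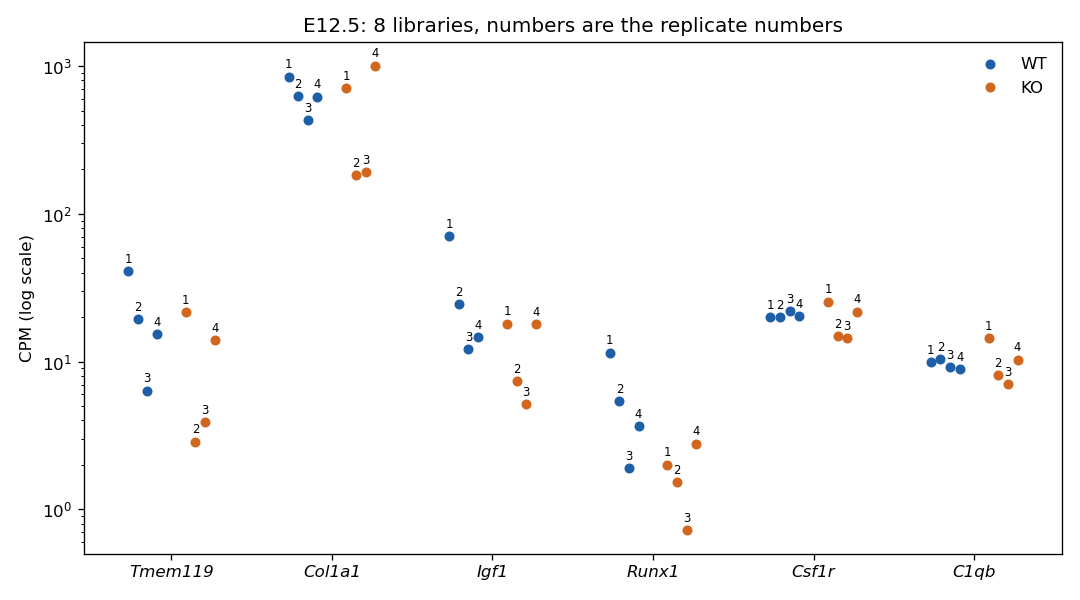
Levels at E12.5 in CPM (log axis) of 6 genes in each of the 8 libraries, WT in blue and KO in orange, with replicate numbers beside the points. Tmem119, Col1a1, Igf1 and Runx1 spread widely and are low in KO replicates 2 and 3, while Csf1r and C1qb stay within a narrow band, though the same 2 libraries are their lowest.

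Aif1 (chr17:35170991-35176068, minus strand), which encodes the actin-binding protein Iba1, was at 0.517 to 2.27 CPM over all 32 libraries. Its WT means were 1.42 ± 0.632, 1.13 ± 0.298, 1.63 ± 0.0868 and 1.31 ± 0.828 CPM (SD, n = 4) from E12.5 to PND0. No WT step of Aif1 passed the threshold. The step closest to it was E14.5 to E16.5, with a log2 change of 0.53 (95% interval -0.02 to 1.08, adjusted p = 0.0937).

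The 3 genes of C1q, the first component of the classical complement pathway, sit side by side within chr4:136880129-136898803 on the minus strand and followed one course in WT: low at E14.5, higher at E16.5, and lower again at PND0 for 2 of them. C1qc was at 8.95, 9.51, 9.35 and 9.9 CPM at E12.5, at 6.85, 6.44, 6.39 and 6.97 CPM at E14.5, at 18.5, 14, 15.8 and 19.1 CPM at E16.5, and at 8.92, 12.7, 10.5 and 10.6 CPM at PND0. Neither E14.5 nor E16.5 overlapped the stage before or after it. From E14.5 to E16.5 it rose 2.54-fold (log2 change 1.34, SE 0.115, adjusted p = 8.76e-08), after a fall of 0.52 on the log2 scale (SE 0.0976, adjusted p = 0.00125) and before one of 0.72 (SE 0.141, adjusted p = 0.000637).

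C1qa was at 5.53, 4.93, 4.81 and 5.66 CPM in WT at E14.5 and at 12.1, 9.9, 11.1 and 13.4 CPM at E16.5, with no overlap. It rose 2.23-fold (log2 change 1.16, SE 0.126, adjusted p = 1.09e-06). C1qb was at 9.07, 5.53, 7.03 and 8.31 CPM and then at 13.9, 10.6, 14.8 and 17.3 CPM, again with no overlap, and rose 1.9-fold (log2 change 0.93, SE 0.166, adjusted p = 0.000262). C1qa also fell from E12.5 to E14.5 (log2 change -0.43, adjusted p = 0.0224) and from E16.5 to PND0 (log2 change -0.40, adjusted p = 0.0352), calls that held in 9 and 6 of 14 alternative settings, whereas both falls of C1qc held in all 14. For C1qb these flanking steps did not pass the threshold (log2 change -0.38 and -0.29, adjusted p = 0.0591 and 0.107). The promoter runs above belong to C1qb and C1qc, and C1qa had no window. Aif1, whose window also held the motif, had no called step, and a link of the motif to these courses was not tested.

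Trem2 (chr17:48346401-48354147, plus strand), a receptor for lipids and apolipoproteins, and Tyrobp (chr7:30413760-30417585, plus strand), the adaptor through which Trem2 signals, rose with the C1q genes from E14.5 to E16.5, at lower levels. Trem2 was at 1.59, 1.29, 1.81 and 1.64 CPM in WT at E14.5 and at 3.06, 3.68, 1.85 and 3.77 CPM at E16.5, so that E16.5 replicate 3 stood only just above the E14.5 range. It rose 1.97-fold (log2 change 0.97, SE 0.238, adjusted p = 0.0023). The fall of Trem2 from E12.5 to E14.5 (log2 change -0.53, adjusted p = 0.0405) held in only 3 of 14 alternative settings. From E16.5 to PND0 no change of Trem2 was called (-0.27, adjusted p = 0.489), and the value was 0.08 with length offsets. Tyrobp was at 2.34, 2.34, 3.49 and 2.9 CPM at E14.5 and at 5.27, 3.97, 3.95 and 5.69 CPM at E16.5, without overlap, and rose 1.71-fold (log2 change 0.78, SE 0.19, adjusted p = 0.00231). Tyrobp then fell to 3.42, 1.81, 3.46 and 3.25 CPM at PND0 (log2 change -0.71, SE 0.237, adjusted p = 0.021), back to a range that overlapped E14.5. That call held in 10 of 14 alternative settings. The earlier fall of Tyrobp, from E12.5 to E14.5 (log2 change -0.53, adjusted p = 0.0261), held in 8 of 14. Apoe, an apolipoprotein that Trem2 binds, rose from E14.5 to E16.5 from 76.2 ± 1.98 to 182 ± 13.9 CPM (SD, n = 4, log2 change 1.26, SE 0.0545, adjusted p = 4.12e-10). Unlike Trem2, Apoe rose further from E16.5 to PND0 (log2 change 0.76, SE 0.0802, adjusted p = 2.99e-06).

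Over the whole list, 2 members rose and 5 fell in WT from E12.5 to E14.5, against 27.3% of all tested genes rising and 30.5% falling. The members that rose were Csf1r and P2ry12, and the median log2 change was -0.41 for the 10 members and -0.03 for all genes. From E14.5 to E16.5, 5 rose and 0 fell (29.3% and 28.2% of all genes), with a median of 0.65 against 0.01. At this step no member fell at an unadjusted p below 0.05 either, and DESeq2 called the same 5 genes. From E16.5 to PND0, 2 rose and 3 fell (26.0% and 27.2% of all genes), with a median of -0.30 against -0.01. Between the ends of the series, E12.5 and PND0, 4 rose, namely Csf1r, Cx3cr1, P2ry12 and C1qb, and Tmem119 fell (34.5% and 36.4% of all genes). Over 14 alternative settings of that comparison, Csf1r, P2ry12 and Tmem119 were called in all 14, Cx3cr1 in 13 and C1qb in 7, with adjusted p for C1qb up to 0.201, and C1qa, which was not called, passed in 7. Neighbouring steps share a group of libraries, and so many genes were called at every step that nothing particular to the members is read from these counts.

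Transcript length moved with these results. The C1q genes, Trem2, Tyrobp and Aif1 have transcripts of 564 to 1203 nt, and Csf1r, Cx3cr1, P2ry12 and Tmem119 of 2242 to 4701 nt. Over all genes as short as the first set (limit just above C1qc) the median log2 change in WT was -0.29, 0.28 and -0.50 at the 3 successive steps, and over genes of 2200 to 4800 nt it was 0.03, -0.07 and 0.08. With offsets for transcript length, an alternative added after the WT values were seen, the 5 rises from E14.5 to E16.5 remained, at log2 changes of 0.96 for C1qa, 0.74 for C1qb, 1.17 for C1qc, 0.78 for Trem2 and 0.45 for Tyrobp (adjusted p = 0.0455 for Tyrobp and smaller for the other 4). The P2ry12 rise and the Tmem119 fall from E12.5 to E14.5 also remained, at 1.10 and -2.82. From E12.5 to E14.5 the count of called members fell from 7 to 3, and from E16.5 to PND0 from 5 to 1, the C1qc fall. Leaving out E14.5 WT replicate 2 gave 4 at the first of these steps. At the second, the count was 3 without E16.5 WT replicate 1, 2 without E16.5 WT replicate 3, E16.5 WT replicate 4 or PND0 WT replicate 1, and 1 without PND0 WT replicate 2. With length offsets the Csf1r and Cx3cr1 rises from E16.5 to PND0 had adjusted p = 0.144 and 0.232. Between E12.5 and PND0 the offsets took the count from 5 to 6. C1qa, C1qb and C1qc were then called as rises (log2 change 0.73, 0.64 and 0.45, adjusted p = 0.00285, 0.000809 and 0.00915), and Cx3cr1 was no longer called.

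**Figure D3:**
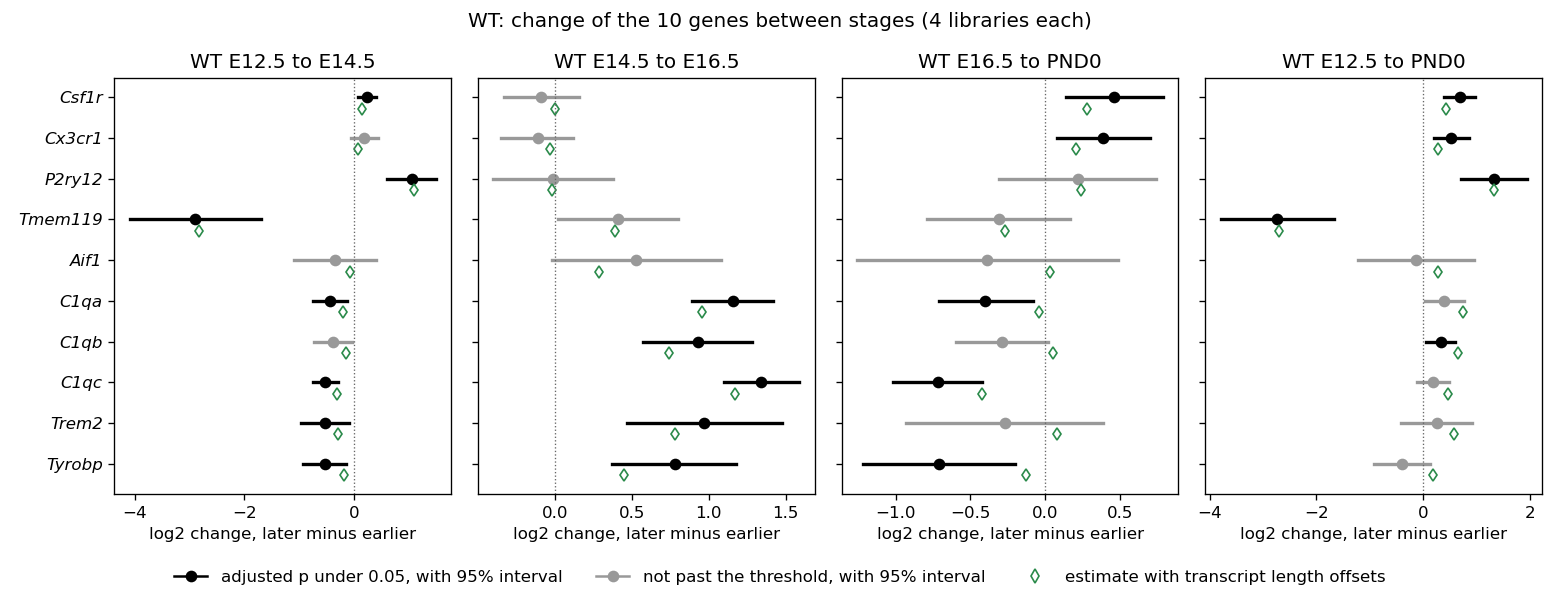
Log2 change in WT between stages for each gene (dots with 95% intervals, black where the adjusted p was under 0.05) and the estimate with transcript length offsets (green diamonds). At E14.5 to E16.5 the 5 black dots, C1qa, C1qb, C1qc, Trem2 and Tyrobp, lie between 0.78 and 1.34, and their diamonds between 0.45 and 1.17; at E16.5 to PND0 the diamonds lie between -0.42 and 0.28.

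The balance of C1q to Csf1r within a library, a ratio chosen after the values were seen, put these courses in 1 number. In WT the sum of the C1q genes in CPM was between 1.24 and 1.3 times Csf1r at E12.5 and between 0.63 and 0.933 times at E14.5. It was between 1.7 and 2.01 times at E16.5, and between 0.782 and 1.27 times at PND0. E14.5 lay below and E16.5 above the other embryonic stages without overlap. The KO ratio lay between 1.29 and 1.59 at E12.5, between 0.66 and 0.889 at E14.5, between 1.88 and 2.45 at E16.5 and between 1.21 and 1.5 at PND0. The genotypes overlapped at all 4 stages. The shift by transcript length given above moves this ratio in the same directions, and its part was not tested.

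**Figure D4:**
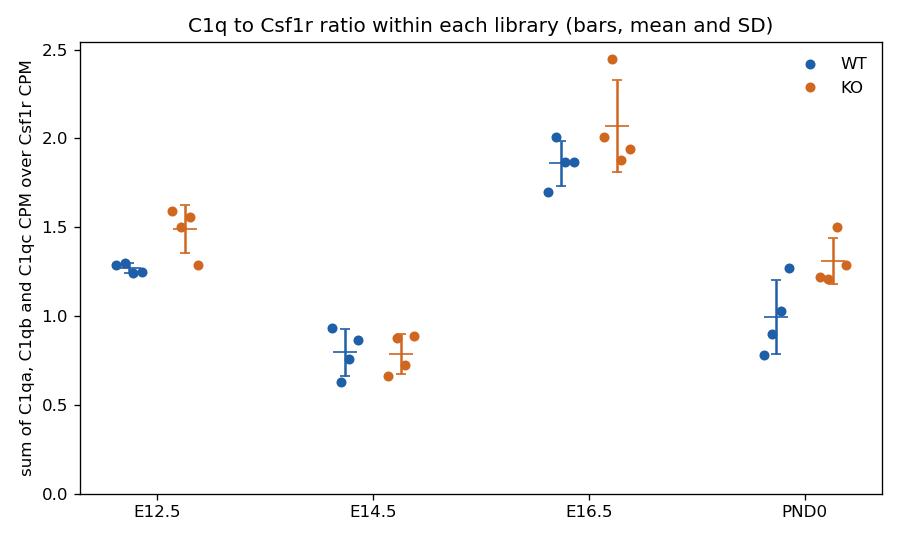
Sum of C1qa, C1qb and C1qc over Csf1r (both in CPM) in each library, by stage, with mean and SD of 4 libraries for WT (blue) and KO (orange). The WT ratio drops to a mean of 0.796 at E14.5, peaks at 1.86 at E16.5 and is 0.993 at PND0.

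Loss of Dhcr7 was compared with WT within each stage, to ask whether these genes differ in its absence. No member passed the threshold at any stage. The count was 0 of 10 at E12.5, E14.5, E16.5 and PND0 with edgeR, where 0.0177%, 0.527%, 0.0462% and 1.44% of all tested genes were called. At an unadjusted p below 0.05 edgeR had 1, 1, 0 and 1 members, and DESeq2 called 0 with 1, 1, 0 and 1 at an unadjusted p below 0.05. DESeq2 gave no adjusted p for 9, 10 and 5 members at E14.5, E16.5 and PND0. The test of whether the KO effect differed between stages called 0 of 10 members, against 0.0256% of all genes, with 0 at an unadjusted p below 0.05 in edgeR and in DESeq2. The median log2 difference over the 10 members was -0.02, -0.09, -0.09 and 0.21 at the 4 stages, and 0 over all genes.

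**Figure D5:**
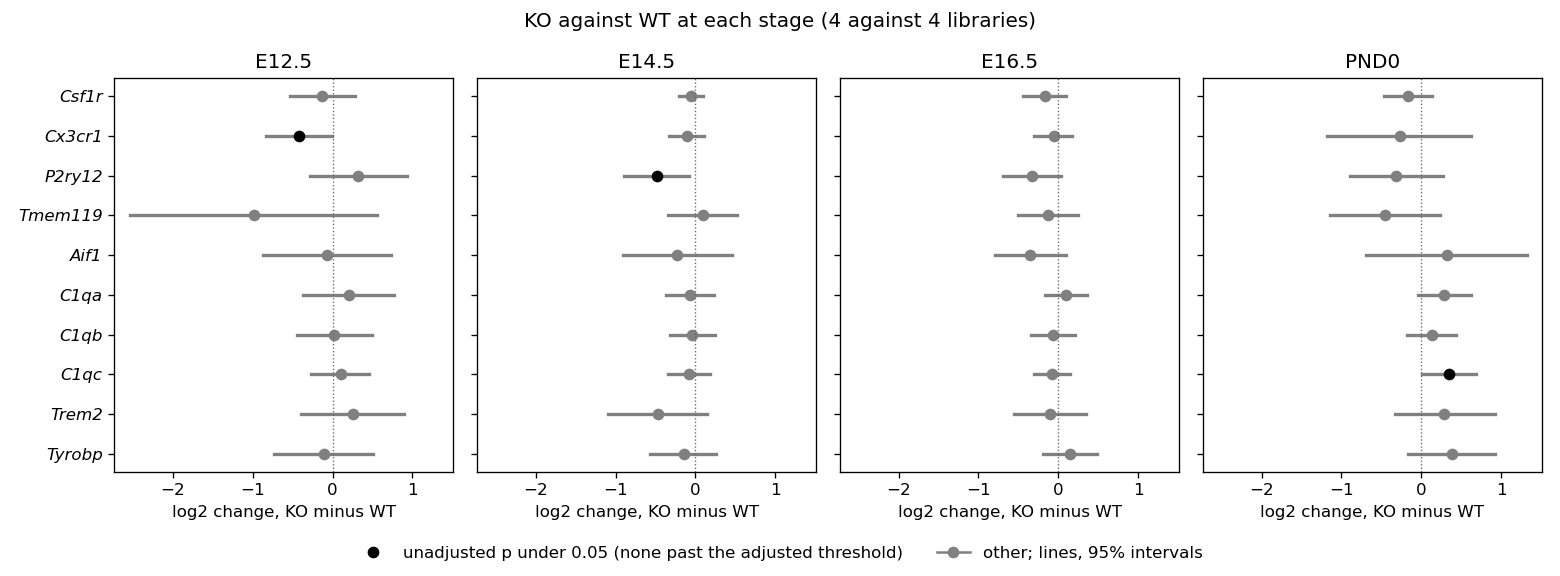
Log2 difference of KO minus WT for each gene at each stage with 95% intervals (4 against 4 libraries). None passed the adjusted threshold; the black dots, Cx3cr1 at E12.5, P2ry12 at E14.5 and C1qc at PND0, had an unadjusted p under 0.05, and the widest interval is that of Tmem119 at E12.5, from -2.54 to 0.56.

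Csf1r in the KO libraries was at 25.5, 14.9, 14.4 and 21.8 CPM at E12.5, at 24.8, 21.8, 26.3 and 21.9 CPM at E14.5, at 19.2, 18.5, 22.7 and 21.5 CPM at E16.5, and at 29.1, 34.8, 25.8 and 27.5 CPM at PND0. They overlapped WT at every stage. At E14.5 the log2 difference was -0.05 with a 95% interval of -0.21 to 0.10, which leaves room for a change of 0.867- to 1.07-fold. At E12.5, E16.5 and PND0 the intervals were -0.53 to 0.28, -0.44 to 0.10 and -0.46 to 0.13.

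P2ry12 had the smallest p of the members at E14.5. Its KO libraries there held 1.74, 2.86, 2.97 and 2.79 CPM against the WT values of 3.05 to 4.72 CPM, without overlap. The log2 difference was -0.48 (SE 0.2, 95% interval -0.89 to -0.08, unadjusted p 0.0208, adjusted p = 0.445 with edgeR). P2ry12 was the single member of 10 whose groups did not overlap at E14.5, where that held for 5.03% of genes of at least 1 CPM. At E16.5 and PND0 its log2 differences were -0.33 and -0.31 with intervals of -0.69 to 0.03 and -0.89 to 0.27, and at E12.5 it was 0.32, higher in KO (-0.28 to 0.93). Each gene was at or above 1 CPM on average at each stage, and 0 of the 10 members had non-overlapping groups at E12.5, where 2.77% of genes did. Only Aif1 did at E16.5, at 1.24 to 1.34 CPM in KO and 1.55 to 1.74 CPM in WT (6.72% of genes), and only Tyrobp at PND0, at 3.48 to 4.55 CPM in KO and 1.81 to 3.46 CPM in WT (12.2% of genes).

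Cx3cr1 at E12.5 was at 8.26, 5.61, 5.89 and 9.01 CPM in KO and 8.22 to 10.1 CPM in WT, overlapping (log2 difference -0.42, SE 0.185, unadjusted p 0.0472, adjusted p = 0.875 with edgeR). At PND0 its KO libraries were at 11.1, 16.9, 3.27 and 14 CPM, with replicate 3 far below the other 7 PND0 libraries. Without that library the PND0 log2 difference went from -0.27 (SE 0.399) to 0.03 (SE 0.176). The same library was lowest of the 8 for Tmem119, at 0.975 CPM, and for P2ry13, another purine receptor, at 0.287 CPM. It was not low for C1qb (14.1 CPM), and it was highest for Apoe (454 CPM), for the protease inhibitor Cst3 (199 CPM), for the leukocyte gene Ptprc (3.21 CPM) and for the haemoglobin gene Hba-a1 (903 CPM against 84.8 to 256 CPM in the other 7).

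Tmem119 gave the least certain comparison. At E12.5 its KO libraries held 21.6, 2.87, 3.91 and 14 CPM against 6.35 to 40.9 CPM in WT, and the log2 difference was -0.99 with an interval of -2.54 to 0.56 (adjusted p = 0.875). It was -0.39 without E12.5 WT replicate 1 and -1.59 without E12.5 KO replicate 1. At E14.5, E16.5 and PND0 the differences were 0.09, -0.13 and -0.45, with the groups overlapping.

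In KO against WT at E14.5 and E16.5 the 3 C1q genes differed by -0.08 to 0.09 on the log2 scale, and their 95% intervals reached from -0.37 to 0.36. Trem2 at E14.5 was at 1.7, 1.02, 0.582 and 1.19 CPM in KO and 1.29 to 1.81 CPM in WT, overlapping (log2 difference -0.47, interval -1.09 to 0.14). At E12.5 KO replicate 1 was the highest of the 8 libraries for C1qa (13.2 CPM), C1qb (14.4 CPM), C1qc (13 CPM), Trem2 (4.48 CPM) and Tyrobp (5.48 CPM), and it is the library with the highest ribosomal RNA share. Without it the E12.5 log2 differences of C1qa, C1qb, C1qc and Trem2 went from 0.20, 0.02, 0.10 and 0.25 to -0.13, -0.21, -0.05 and -0.08.

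At PND0 the 5 genes were all higher in KO on average, and none passed the threshold. C1qc was at 12.2, 16.4, 13.4 and 12.3 CPM in KO and at 8.92, 12.7, 10.5 and 10.6 CPM in WT, overlapping at WT replicate 2 (log2 difference 0.35, SE 0.16, unadjusted p 0.0424, adjusted p = 0.257 with edgeR). Tyrobp was at 3.75, 4.55, 3.79 and 3.48 CPM in KO, above all WT libraries, with a log2 difference of 0.38 (interval -0.17 to 0.92). For C1qa, C1qb and Trem2 the differences were 0.29, 0.13 and 0.29. Over all genes of the short length class the median log2 difference at PND0 was 0.15, and with length offsets the values were 0.25 for C1qc, 0.22 for Tyrobp, 0.17 for C1qa and Trem2, and 0.01 for C1qb.

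Genes related to the members were read from lists written alongside them. Their counts from E14.5 to E16.5 stand against the 29.3% of all genes that rose and the 28.2% that fell. These shares differed with transcript length. In the short length class 41.5% of genes rose and 12.8% fell at this step, and of genes of 2200 to 4800 nt 22.8% rose and 33.5% fell. The part of transcript length in the counts of the lists was not tested. Of 14 other microglia genes, 13 could be tested, and 5 rose and 1 fell in WT from E14.5 to E16.5. Among them were Cst3 (log2 change 1.02, SE 0.0662), Fcrls (0.54, SE 0.127) and Sall1, which fell (-1.58, SE 0.0949) and is also a transcription factor of neural progenitors. The rising genes of these lists were read in whole brain too, and which cells gave their counts was not tested. In WT at E16.5 the 14 other microglia genes summed to 609 to 703 CPM, against 76.6 to 105 CPM for the members. Of 12 tested genes of early phagocytic and disease-associated microglia, 9 rose and 1 fell at that step, with Cd63 and Cd9, both membrane tetraspanins, at 0.86 each. Of 9 tested border macrophage markers, 7 rose and 1 fell, led by the haemoglobin scavenger receptor Cd163 (log2 change 3.09, SE 0.358), while Stab1 fell (-0.69, SE 0.0771). Of 14 pan-myeloid genes, 3 rose, among them the integrin Itgam (1.18, SE 0.339) and the Fc receptor Fcgr3 (0.91, SE 0.192), and Laptm5 fell (-0.73, SE 0.117). Of 10 tested genes of the complement cascade outside C1q, 3 rose, namely Cd55 (0.89, SE 0.178), C3 (1.19, SE 0.309) and Cd59a (0.54, SE 0.195), and Masp1 fell (-0.61, SE 0.103). The 8 proliferation genes fell at each of the 3 steps, by a median of 0.82, 0.73 and 1.43 on the log2 scale.

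In KO against WT, edgeR called 0 genes of the 12 lists at any stage, and between 0 and 5 genes of a list had an unadjusted p below 0.05 at a stage, the 5 being proliferation genes at E16.5. The smallest p of each myeloid list belonged to Sparc at E14.5 (log2 difference 0.12, adjusted p = 0.113), Apoe at E14.5 (-0.15, adjusted p = 0.264), Cd163 at PND0 (-0.77, adjusted p = 0.171) and Lyz2 at PND0 (0.63, adjusted p = 0.132). In the complement, ligand and proliferation lists it belonged to C4b at E16.5 (2.09, adjusted p = 0.217), Il34 at E14.5 (0.85, adjusted p = 0.379) and Top2a at E14.5 (-0.13, adjusted p = 0.0839). Among lists of other cells it belonged to S100a9 of neutrophils at E12.5 (-0.77, adjusted p = 0.875), Kit of the mast cell and lymphocyte list at PND0 (-0.35, adjusted p = 0.0687), Slc4a1 of red cells at E14.5 (-0.52, adjusted p = 0.0776), Tie1 of endothelium at E14.5 (0.17, adjusted p = 0.353) and Rgs5 of pericytes at E14.5 (0.18, adjusted p = 0.325). Of the 9 genes of the mast cell and lymphocyte list, only 2 could be tested at PND0 and only Kit at the earlier stages. Kit is therefore not read as a mark of mast cells here. The blood cell markers summed to 233 to 2208 CPM in the PND0 KO libraries and to 198 to 262 CPM in WT, and their part in the PND0 values of the members was not tested.

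Over the 32 libraries, the Pearson r of each gene's log2 CPM with the mean of the other 9 was 0.807 for C1qb, 0.753 for C1qc, 0.744 for C1qa, 0.713 for Trem2 and 0.694 for Tyrobp, while it was 0.355 for Aif1, 0.221 for Csf1r, 0.132 for Cx3cr1, 0.125 for P2ry12 and -0.00133 for Tmem119. With each library taken as its deviation from its group mean, the same r was positive for all 10 members, from 0.124 for Aif1 to 0.717 for Csf1r, and was 0.644 for Tmem119. The r of the levels are over libraries that differ in stage and depth, and the part of these differences in them was not tested. Those of the deviations leave out the group means but not depth. Of 16054 genes of at least 1 CPM, those most like the mean of the members in level were Anxa3 (r = 0.897), S100a10 (0.858), Tm4sf1 (0.843), Ech1 (0.841), Anxa1 (0.837), Fcgrt (0.836), Arhgap29 (0.829) and Clec14a (0.823). On the deviations, the 8 most alike were Gjb2 (0.877), Cavin3 (0.874), Arpc1b (0.861), Anxa6 (0.85), Gpx7 (0.838), Myl9 (0.836), Anxa5 (0.836) and Rab3il1 (0.833). None of the genes named as most alike, in level or on the deviations, belongs to the gene lists beside the members. Likeness to the mean is therefore not read as a mark of microglia. Within groups the closest pair of members was C1qa with C1qb (r = 0.646), followed by C1qb with C1qc (0.629) and Csf1r with C1qc (0.586).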

How the data were processed

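The authors deposited 1 table per stage of raw counts per gene symbol, which are whole numbers and not normalized. Per the labels, RNA of brains was enriched for polyadenylated transcripts and sequenced as read pairs. The submitters' processing notes name HISAT2, SAMtools, featureCounts, DESeq2 and build mm10, without settings or versions. The members and the 12 gene lists beside them were chosen with earlier results of these data known. Tests used edgeR 4.0.16 in R 4.3.3 (quasi-likelihood F test, TMM, filterByExpr with a minimum count of 10, robust), with Benjamini-Hochberg adjustment over all genes tested and a threshold of 0.05; CPM are counts-per-million of TMM-scaled library size. KO was compared with WT within each stage, WT stages in pairs, and the stage dependence of the KO effect over all 32 libraries. The code was tested on simulated data. All members were named everywhere; of other lists, called genes, or the one with the smallest p, and at most 4 in WT steps; as most alike, 8 genes. Each result was recomputed leaving out each library, with DESeq2 1.42.0, without the filter, with size factors of the RLE kind, with a replicate block, with length offsets, in 1 fit of all libraries and, for KO, with a covariate from sex-linked genes. WT stages come from separately made tables, so stage and table cannot be told apart. Positions and lengths are from GENCODE M21 (GRCm38) and promoter windows from RefSeq (GRCm38.p6). Intervals cover 95%.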

Additional observations from a re-analysis of the deposited data

Results flagged for a closer look

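Of the 80 sets of 4 libraries (10 genes in 8 groups), 6 held a library whose gap to the nearest of the others took up most of the range of its set; chance gives such a gap in about 1 of 20 sets, or 4 of 80. Cx3cr1 in PND0 WT replicate 4 was at 10.4 CPM, against 14.7 CPM for the nearest. P2ry12 in E14.5 KO replicate 1 was at 1.74 CPM, with the nearest at 2.79 CPM. Tmem119 in E16.5 WT replicate 4 was at 4.86 CPM, above the next at 3.45 CPM. C1qa in E12.5 KO replicate 1 was at 13.2 CPM, above the next at 6.95 CPM. Trem2 in PND0 KO replicate 4 was at 2.82 CPM, below the next at 3.39 CPM. Tyrobp in PND0 WT replicate 2 was at 1.81 CPM, below the next at 3.25 CPM. PND0 WT replicate 4 was also the lowest of its group for Csf1r (24.5 CPM), P2ry12 (2.54 CPM) and Trem2 (1.32 CPM), and without it the log2 difference of KO minus WT at PND0 was -0.28 for Csf1r, -0.49 for P2ry12 (-0.31 with it) and 0.06 for Trem2, with adjusted p of 0.241, 0.327 and 0.927.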

How the results depend on the processing

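In KO against WT, 0 members were called at every stage under all alternatives run, the replicate block included, and the 5 WT rises from E14.5 to E16.5 were called under all of them. The deviations of same-numbered KO and WT libraries had r of -0.274 to 0.375, and 4 of 16 pairs correlated best with their own number. The labels do not say whether the numbers mark a shared litter, and these r cannot decide it. With the replicate block each WT comparison had 5 called members, but C1qa and Trem2 were lost from E12.5 to E14.5, and from E12.5 to PND0 C1qb was lost and C1qa gained. From E12.5 to E14.5 the count of 7 became 3 with length offsets and 4 to 6 when 1 library was left out. It was 5 without the filter, 5 in the fit of all libraries and 6 with DESeq2. The Csf1r rise at this step was not called with length offsets (adjusted p = 0.116) or in the fit of all libraries (adjusted p = 0.141). From E16.5 to PND0 the count of 5 became 4 without the filter, 3 in the fit of all libraries, 1 with length offsets and 1 to 4 when 1 library was left out. Uncalled differences, Trem2 (0.25) and C1qa (0.20) at E12.5 and Cx3cr1 (-0.27) at PND0 among them, changed sign when 1 library was left out, with these ranges on the log2 scale: at E12.5, Aif1 -0.24 to 0.23, C1qa -0.13 to 0.31, C1qb -0.21 to 0.16 (-0.02 with the replicate block and with length offsets), C1qc -0.05 to 0.21, Trem2 -0.08 to 0.41 and Tyrobp -0.35 to 0.08; at E14.5, Tmem119 -0.12 to 0.27 and C1qb -0.17 to 0.06; at E16.5, Tmem119 -0.20 to 0.03, C1qa -0.0045 to 0.17, C1qb -0.18 to 0.04 and Trem2 -0.29 to 0.002; at PND0, Cx3cr1 -0.53 to 0.03. In WT from E14.5 to E16.5 the ranges were -0.16 to 0.03 for Csf1r and -0.10 to 0.14 for P2ry12, and from E12.5 to PND0 -0.44 to 0.17 for Aif1. Length offsets reversed uncalled WT values: from E16.5 to PND0 Aif1 to 0.03, C1qb to 0.05 and Trem2 to 0.08, and from E12.5 to PND0 Aif1 to 0.27 and Tyrobp to 0.17. The cause of the other changes was not tested. Depth limits Aif1, Trem2, Tmem119 and P2ry12 most: single libraries held as few as 9, 10, 17 and 18 counts of them.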
